A study of Mus musculus with 20 samples.

Results

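Cbr2, Jaml, Tacc2, Agpat3, Marcks and Scimp are 6 genes whose transcripts stood higher in eosinophils from colonic tumors than in eosinophils from naive colon, while in macrophages from the same kinds of tissue they stood lower or moved little. They are 6 of the 50600 gene names in the expression tables. The genes were chosen by the measured tumor effects themselves: the change between naive colon and tumor in eosinophils was set against that in macrophages after all libraries had been scaled together. Those changes are therefore a description of how the genes were picked and carry no test. RNA was profiled by CEL-Seq, which barcodes and counts the 3′ ends of polyadenylated transcripts, in cells that were sorted by flow cytometry from enzymatically digested colons of C57BL/6 wild-type mice. The 9 eosinophil libraries comprise 2 of naive colon and 7 labelled intratumoral, and the 11 macrophage libraries comprise 5 and 6. Tumor samples carry the label CAC and the others the label naive. The labels used here state no agent of induction, no age and no sorting marker. The labels do not say whether the libraries of a group came from separate mice, so errors and p-values measure the spread between these libraries.

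The 6 genes have different roles. Cbr2 encodes a carbonyl reductase, an enzyme that reduces carbonyl groups with NADPH, and is known as a transcript of tissue-resident macrophages in the mouse. Jaml encodes a junctional adhesion molecule-like receptor of leukocytes that binds CXADR on epithelium and takes part in migration across it and in T cell costimulation. Tacc2 encodes a coiled-coil protein of the TACC family that associates with centrosomes and microtubules. Agpat3 encodes an acyltransferase that adds a second fatty acid to lysophosphatidic acid in phospholipid synthesis. Marcks encodes a myristoylated substrate of protein kinase C that binds actin, calmodulin and the membrane lipid PIP2, and releases from the membrane when phosphorylated. Scimp encodes a transmembrane adaptor of antigen-presenting cells that links Toll-like receptors and MHC class II to the kinase Lyn and to the adaptors Blnk and Lcp2. Eosinophils are granulocytes that settle in the healthy gut wall, and colonic macrophages are phagocytes that include both long-lived and monocyte-derived cells.

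Start-site sequences are shown for Cbr2, Jaml and Tacc2, whose opposite tumor effects were called in both cell types (limma adjusted p under 0.05). They come from RefSeq (GRCm38.p6), which matched 4 of the 6 genes, and each spans 250 bases before to 50 bases after the start of the transcript, 5′ to 3′ on the gene's strand. Capitals mark matches, on either strand, to 1 of 8 motifs, those of AP-1, PU.1, STAT, GATA, C/EBP, NF-kB, the interferon response element and the TATA box, none of which overlap here.
Cbr2 (chr11:120731972-120732271, minus strand): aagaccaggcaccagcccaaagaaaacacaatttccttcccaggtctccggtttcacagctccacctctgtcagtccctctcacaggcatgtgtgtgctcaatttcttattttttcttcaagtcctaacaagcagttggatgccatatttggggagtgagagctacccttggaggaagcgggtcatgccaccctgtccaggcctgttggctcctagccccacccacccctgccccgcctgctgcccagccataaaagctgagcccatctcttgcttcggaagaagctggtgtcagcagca
Jaml (chr9:45078933-45079232, plus strand): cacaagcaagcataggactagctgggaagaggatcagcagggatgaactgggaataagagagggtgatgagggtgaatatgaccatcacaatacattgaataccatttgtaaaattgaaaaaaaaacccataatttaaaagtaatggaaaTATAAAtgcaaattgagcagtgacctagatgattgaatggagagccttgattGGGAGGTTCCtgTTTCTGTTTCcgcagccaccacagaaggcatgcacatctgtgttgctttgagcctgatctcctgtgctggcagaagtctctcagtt
Tacc2 (chr7:130577188-130577487, plus strand): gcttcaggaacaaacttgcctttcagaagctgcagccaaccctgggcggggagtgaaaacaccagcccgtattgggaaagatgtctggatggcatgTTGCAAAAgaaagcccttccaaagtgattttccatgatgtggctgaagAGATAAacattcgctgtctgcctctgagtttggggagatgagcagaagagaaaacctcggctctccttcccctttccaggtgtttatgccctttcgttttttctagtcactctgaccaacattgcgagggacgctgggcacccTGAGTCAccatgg

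The Cbr2 window held none of these letters, which says only that they are not in this window. The Jaml window held a TATA box match (TATAAA) at −100 bases from the start, an NF-kB match at −48 and an interferon response element match at −36. Of 32851 windows of the same length, 13.6%, 1.47% and 3.44% held these motifs. The Tacc2 window held a C/EBP match (TTGCNNAA) at −154 bases from the start, a motif found in 10.8% of windows. It also held a GATA match (AGATAA) at −106, found in 11.2% of windows, and an AP-1 match (TGANTCA) at 37, found in 7.81%. The Agpat3 window held a C/EBP match at −149, and the window at the other RefSeq start of Tacc2 had no match. No window of these genes held a PU.1 match (GAGGAAGT, in 3.2% of windows) or a STAT match (TTCNNNGAA, in 8.3%). The matches are letters in a sequence and not measured binding. The share of G and C was 54.7% for Cbr2, 42.3% for Jaml, 50.7% for Tacc2 and 59% for Agpat3, against a median of 52.7%.

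By GENCODE M21 (GRCm38), Cbr2 lies on chromosome 11 (120729489 to 120732114, minus strand) and Scimp on the same chromosome (70790932 to 70812586, minus strand). Marcks (37133375 to 37138920) and Agpat3 (78269178 to 78352489) lie on the minus strand of chromosome 10. Jaml is on the plus strand of chromosome 9 (45079183 to 45108534) and Tacc2 on that of chromosome 7 (130577438 to 130764785). All 6 are protein-coding. Jaml shares exon bases with the antisense lincRNA Gm10684, which had 19 reads over the 20 libraries, and Agpat3 with Gm40709 on the other strand, whose reads were not used here. Whether the strand was used in counting was not stated, so for Jaml and Agpat3 the reads of the 2 strands may be mixed.

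Depth ran from 1477255 to 8520874 reads per library. Values are normalised reads, scaled to an average library of 5515096 reads. The cell types were checked against marker lists. The 16 macrophage markers summed to 104000 to 141000 normalised reads in naive and 122000 to 167000 in tumor macrophages, and to 5570 to 7440 in naive and 6290 to 11400 in tumor eosinophils. The 14 eosinophil markers measured summed to 19600 to 26600 in naive and 7120 to 67500 in tumor eosinophils, against 1850 to 3170 and 2260 to 3590 in the macrophage groups, where Prg3 (naive) or Epx (tumor) was at 0. Adgre1 was on both of these lists. The eosinophil libraries also held neutrophil markers (44000 to 88500 naive, with Elane and Mpo at 0, and 30500 to 97800 tumor) and epithelial ones (12800 to 18300 naive, 13000 to 39800 tumor), and tumor eosinophil libraries 1 to 3 held the most epithelial reads (35100 to 39800). In every eosinophil library the neutrophil sum was above the eosinophil sum. Its median was 66200 in naive and 59400 in tumor eosinophils, against 23100 and 11700 for eosinophil markers. The 11 B and plasma cell markers gave large sums in all 4 groups. Naive macrophage libraries held 92300 to 426000 of them (median 252000, against 127000 for macrophage markers). Tumor macrophage libraries held 40100 to 380000 (median 123000, against 130000). Eosinophil libraries held 34400 to 51700 (naive) or 46800 to 102000 (tumor). The part of B and plasma cell transcripts in the values of the 6 genes was not tested. In such sorted bulk samples, fewer cells of a type and less RNA per cell cannot be told apart.

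For Cbr2 the naive and tumor groups stood in opposite order in the 2 cell types. Naive eosinophil libraries 1 and 2 had 226 and 100 normalised reads, and the 7 tumor eosinophil libraries had 836 at the lowest, 1160 at the median and 1510 at the highest. The 5 naive macrophage libraries had 1930, 978, 2470, 882 and 1600. The 6 tumor macrophage libraries had 59 at the lowest, 132 at the median and 304 at the highest. No tumor library overlapped a naive library of its own cell type. Tumor eosinophils overlapped naive macrophages, and tumor macrophages overlapped naive eosinophils. In eosinophils the log2 change from naive to tumor was 2.91 ± 0.48 (SE), from a mean of 163 ± 89.3 (SD, n = 2) to 1160 ± 246 (n = 7). In macrophages it was −3.52 ± 0.36, from 1570 ± 662 (n = 5) to 151 ± 96.9 (n = 6). The eosinophil effect exceeded the macrophage effect by 6.43 ± 0.60 on the log2 scale.

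Jaml was an abundant transcript of macrophages and nearly missing from naive eosinophils. Naive eosinophil libraries 1 and 2 had 1.82 and 0 normalised reads, which were 2 reads and 0 reads, while tumor eosinophils ran from 30.9 through a median of 38.2 to 83.4. Naive macrophages had 700, 965, 907, 901 and 669, and tumor macrophages ran from 206 through 288 to 440. The 4 groups did not overlap at any step of the order naive macrophages, tumor macrophages, tumor eosinophils, naive eosinophils. The log2 change was 4.72 ± 0.38 (SE) in eosinophils and −1.46 ± 0.29 in macrophages, a difference of 6.18 ± 0.47. Because the naive eosinophils held 2 reads in all, the fitted change depends on the pseudocount. The ratio of summed reads, 269 in tumor against 2 in naive eosinophils, was 37.3 after scaling, with an exact 95% counting interval of 10.2 to 310 that covers counting error only.

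Tacc2 was the third gene with opposite effects called in both cell types. Naive eosinophils had 18.2 and 15.5 normalised reads, and tumor eosinophils had 74.6 at the lowest, 106 at the median and 205 at the highest. Naive macrophages had 78.9, 110, 80.9, 63.3 and 111, and tumor macrophages ran from 29.9 through 43.6 to 54.2. Tumor eosinophils stood above tumor macrophages in every library and overlapped naive macrophages. The log2 change was 2.67 ± 0.35 (SE) in eosinophils and −1.06 ± 0.27 in macrophages, a difference of 3.73 ± 0.44.

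**Figure D1:**
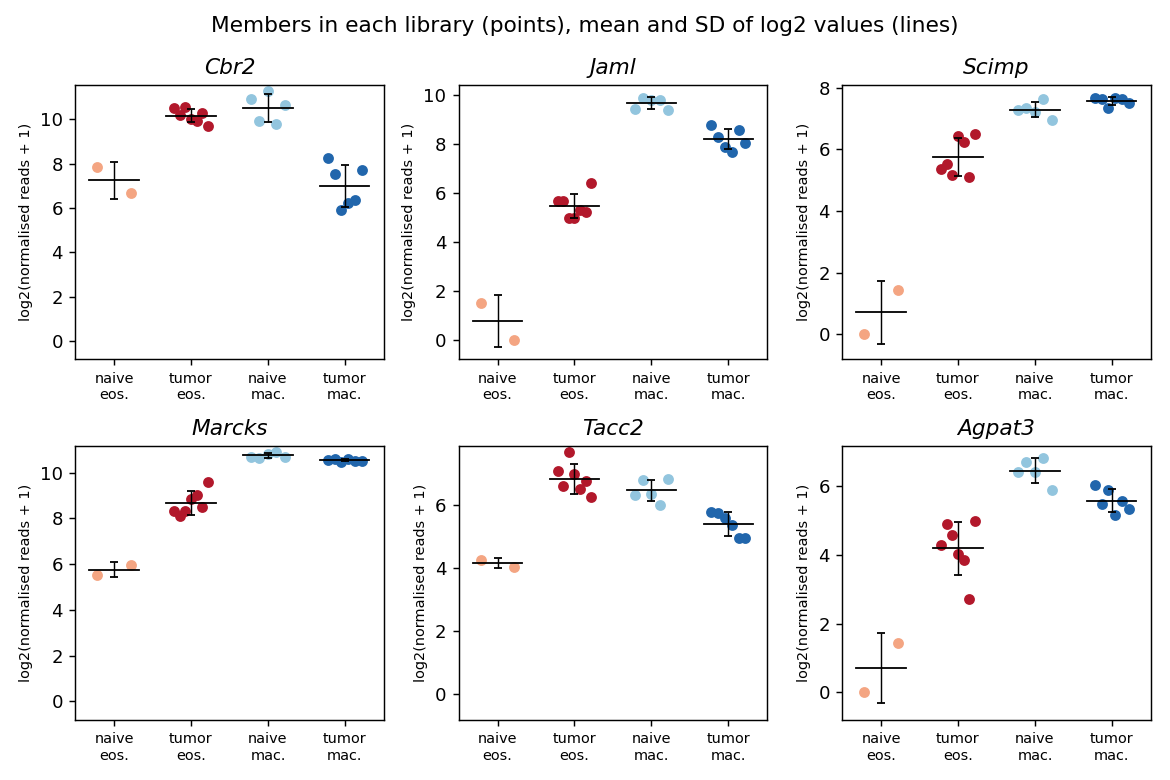
Level of each gene in each library as log2(normalised reads + 1), by group (eos., eosinophils; mac., macrophages); points are libraries, the long line is the mean and the bar the SD of the log2 values. All 7 tumor eosinophil points lie above both naive eosinophil points in each panel, and the tumor macrophage points of Cbr2, Jaml and Tacc2 lie below all naive macrophage points.

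Agpat3 had the lowest read support. Naive eosinophils had 0 and 1.72 normalised reads (0 reads and 1 read), and tumor eosinophils ran from 5.56 (2 reads, library 6) through 18.7 to 30.7. Naive macrophages had 85.2, 104, 85.5, 113 and 59.2, and tumor macrophages ran from 35.1 through 45.6 to 64.6, with 5 of the 6 below every naive library. The log2 change was 3.48 ± 0.50 (SE) in eosinophils and −0.87 ± 0.38 in macrophages, a difference of 4.35 ± 0.63. The ratio of summed reads in eosinophils, 125 in tumor against 1 in naive libraries, was 34.7 (exact 95% counting interval 6.11 to 1380).

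Marcks and Scimp differed between the cell types mainly through their change in eosinophils, with small changes in macrophages. For Marcks, naive eosinophils had 45.4 and 62.1 normalised reads and tumor eosinophils ran from 276 through 364 to 777. Naive macrophages had 1650, 1590, 1820, 1910 and 1640, and tumor macrophages ran from 1420 through 1480 to 1550, a narrow band just under the naive one. The log2 change of Marcks was 2.91 ± 0.27 (SE) in eosinophils and −0.21 ± 0.20 in macrophages, a difference of 3.12 ± 0.34.

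For Scimp, naive eosinophils had 0 and 1.72 normalised reads (0 reads and 1 read) and tumor eosinophils ran from 33.4 through 44.6 to 90. Naive macrophages had 154, 162, 148, 199 and 122, and tumor macrophages ran from 162 through 196 to 200. The macrophage groups overlapped, and Scimp was the 1 gene of the 6 whose macrophage change had a positive sign. Its log2 change was 5.03 ± 0.39 (SE) in eosinophils and 0.28 ± 0.29 in macrophages, a difference of 4.75 ± 0.49. The ratio of summed reads in eosinophils, 329 in tumor against 1 in naive libraries, was 91.3 (exact 95% counting interval 16.3 to 3620).

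**Figure D2:**
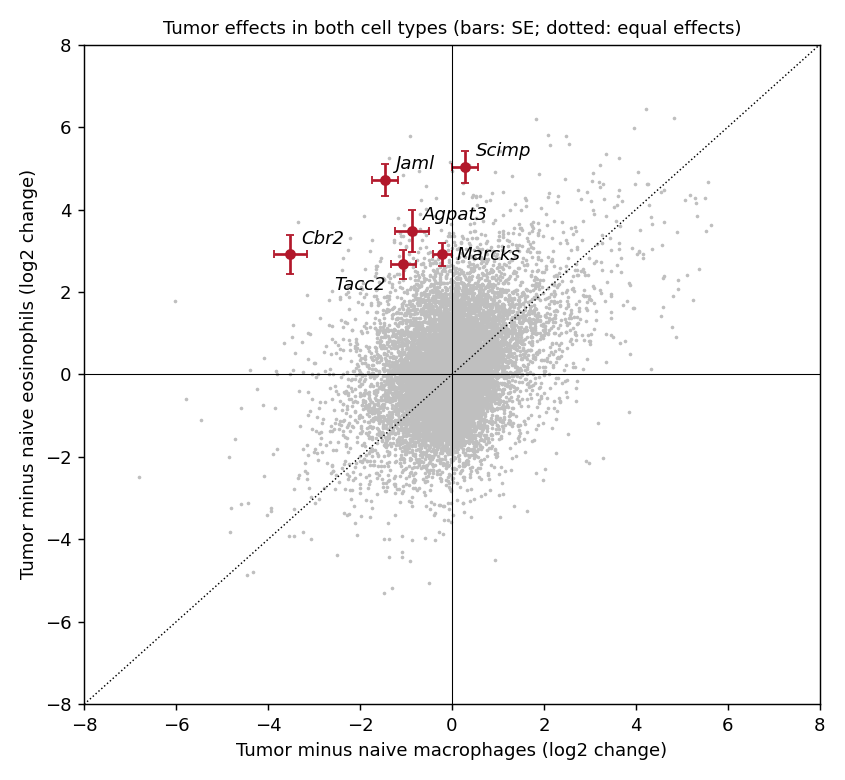
Change from naive to tumor in macrophages (horizontal, log2) against that in eosinophils (vertical, log2) for the 15620 genes tested (grey) and the 6 genes (red, bars are SE); the dotted line marks equal effects. Cbr2 at −3.52 and 2.91 lies farthest to the left of the 6, and Scimp at 0.28 and 5.03 highest.

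By limma's moderated test with Benjamini-Hochberg adjustment over 15620 genes (called at an adjusted p under 0.05), 5.71% of genes were called higher and 5.87% lower in tumor eosinophils, 3.81% higher and 2.48% lower in tumor macrophages, and 1.79% and 2.11% had a larger or smaller effect in eosinophils than in macrophages (280 and 330 genes; 332 and 207 under median-of-ratios scaling). All 6 genes stood above the threshold in eosinophils and for the difference, and Cbr2, Jaml and Tacc2 in macrophages, which is how they were found. Genes called both higher in tumor eosinophils and lower in tumor macrophages numbered 13 (0.0832%), these 3 among them. All 7 tumor eosinophil libraries lay above both naive ones for 6.05% of genes and for each of the 6. All 6 tumor macrophage libraries lay below the 5 naive ones for 3.82% of genes and for Cbr2, Jaml, Tacc2 and Marcks.

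The level of the genes in eosinophils against macrophages was taken as the mean over the 9 eosinophil libraries minus the mean over the 11 macrophage libraries. Its error is uncorrelated with those of the tumor effects, but its size includes those effects, in proportion to the tumor libraries of each cell type. The values are therefore given as a description with no test. Naive and tumor levels were both lower in eosinophils for 4 genes. The log2 difference was −4.46 ± 0.21 for Jaml, −2.80 ± 0.22 for Scimp, −2.61 ± 0.15 for Marcks and −2.56 ± 0.28 for Agpat3. For these 4 genes every macrophage library lay above every eosinophil library, as for 5.99% of genes. No call is given for these 4 genes, because the size of the values includes the tumor effects. For Cbr2 and Tacc2 the order of the cell types turned between naive and tumor samples, so the values over all libraries, 0.92 ± 0.27 and 0.35 ± 0.20, are given as a description with no test. Cbr2 in naive eosinophils averaged 163 normalised reads against 1570 in naive macrophages, and in tumor samples 1160 against 151. Over all genes 26.8% were called lower and 23.4% higher in eosinophils, 50.3% in either direction. Nothing is read from these shares for the 6 genes.

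Macrophage markers were present in the eosinophil libraries, and their level there was set beside that of the 6 genes. The summed macrophage markers in eosinophils amounted to 5.17% of the naive and 6.32% of the tumor macrophage level. This sum includes Adgre1, which was at 338% in naive and 108% in tumor samples. Apart from Adgre1, which eosinophils carry as well, single macrophage markers in tumor eosinophils ranged from 1.63% to 21.1% of their tumor macrophage level (15 markers, median 3.41%, highest for Cd14). In naive samples the same 15 markers ranged from 0.264% (Cx3cr1) to 25.9% (Csf1r). All of them except Csf1r and Mertk stood at a higher percentage in tumor than in naive samples. Jaml in tumor eosinophils was at 14.9% of its tumor macrophage level, Marcks at 29%, Scimp at 30.4% and Agpat3 at 40.3%. The same 4 genes were at 0.11%, 3.12%, 0.55% and 0.965% in naive samples. Cbr2 and Tacc2 in tumor eosinophils were at 769% and 279% of the tumor macrophage level, that is, above it, after 10.4% and 19% in naive samples. Of the 16 macrophage markers 9 were called higher in tumor eosinophils and 1 lower (median log2 change 1.32), and of 14 neutrophil markers 8 were higher (median 2.63). The part of macrophage and neutrophil transcripts in the values of Jaml, Marcks, Scimp and Agpat3 was not tested.

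**Figure D3:**
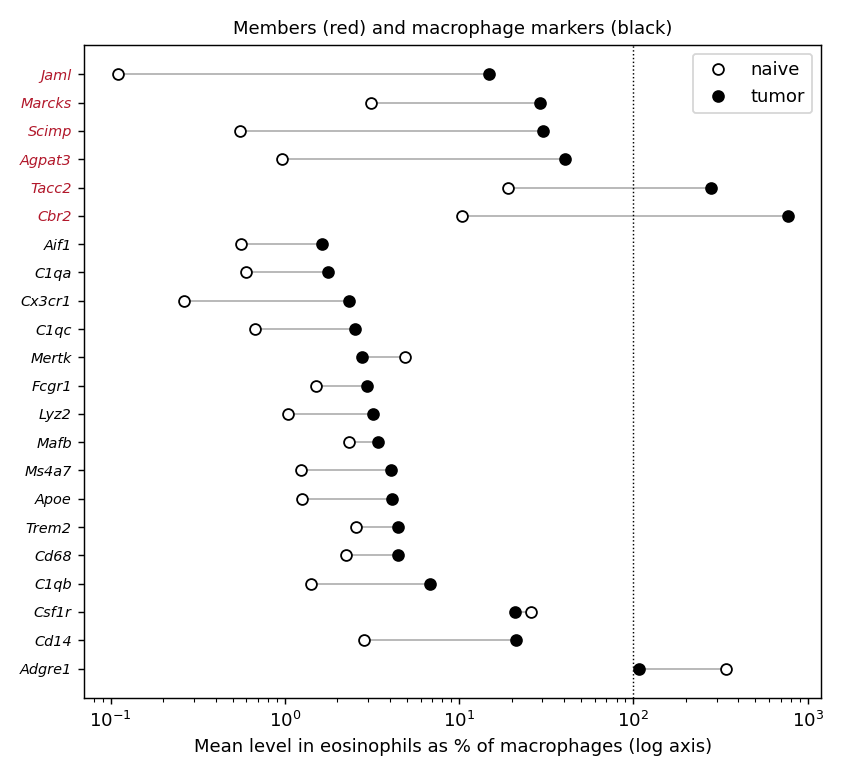
Mean level in eosinophils as a percentage of the mean level in macrophages (log axis), naive samples as open and tumor samples as filled circles, for the 6 genes (red names) and 16 macrophage markers (black names); the dotted line marks equal levels. In tumor samples the 6 genes lie between 14.9% and 769%, and the markers other than Adgre1 between 1.63% and 21.1%.

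Among the tumor eosinophil libraries the genes did not peak together. Library 7 had the highest Jaml (83.4), Marcks (777), Scimp (90) and Agpat3 (30.7), and the lowest Cbr2 (836) and Tacc2 (74.6). Library 3 had the highest Cbr2 (1510) and Tacc2 (205). Macrophage markers summed to 11400, 9640, 6290, 8660, 7630, 7990 and 9630 in libraries 1 to 7. In the same order Marcks was 320, 276, 316, 453, 514, 364 and 777. Sums of epithelial markers were 39800, 36800, 35100, 16900, 13000, 14200 and 17400 in libraries 1 to 7. Tacc2 was 134, 95.2, 205, 125, 88.7, 106 and 74.6. Cbr2 was 1430, 1160 and 1510 in libraries 1 to 3 and 1020, 962, 1220 and 836 in libraries 4 to 7. With libraries 4 to 7 alone (chosen after seeing the data) the log2 change in eosinophils was 2.72 for Cbr2 and 2.46 for Tacc2. Epithelial markers summed to 13000 to 17400 in these libraries and to 12800 to 18300 in the naive ones. The part of epithelial transcripts in the values of Cbr2 and Tacc2 was not tested.

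The profiles of the 6 genes over the 20 libraries were compared by the root mean square difference of their centred log2 values, where 0 is an identical profile. Marcks and Agpat3 were nearest (0.63), then Marcks and Scimp (0.68) and Scimp and Agpat3 (0.80). Jaml lay 1.21 to 1.24 from these 3 genes. Cbr2 and Tacc2 were 1.13 apart, and Cbr2 was 2.90 from Jaml.

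Genes of the tissue-resident macrophage type, to which Cbr2 belongs, were tested beside it. Of 18 names on the list 16 were tested. In tumor macrophages 11 of the 16 fell, 0 rose and 5 were not called (median log2 change −2.21, against 0.06 over all genes). With 1 library left out 7 to 11 fell, the 7 without naive macrophage library 3 or 4. Markers listed for other cells moved in the same libraries. Of 14 neutrophil markers 7 rose in tumor macrophages (sum 230 to 353 in naive and 626 to 4200 in tumor libraries), and of 9 dendritic cell markers 4 fell (544 to 1380 and 519 to 1380). Of 5 erythrocyte markers tested 4 fell (1390 to 24800 and 593 to 2750). Of 12 T and NK cell markers 1 fell, Cd4, from a mean of 2370 in naive to 605 in tumor macrophages. Cd4 made up most of the mean sum of that list, 2640 in naive and 808 in tumor libraries (Ncr1 at 0 in tumor). Which cells the Cd4 reads came from was not tested. Of 14 epithelial markers 5 rose and 0 fell (3040 to 16400 in naive and 7040 to 12600 in tumor libraries). The part of these other cells in the macrophage values of the tissue-resident genes, and of the 6, was not tested. In tumor eosinophils 1 rose, 0 fell and 15 were not called (median −0.11, against 0.00). The 1 was Ccl8, a chemokine, at 2.19 ± 0.41 (limma adjusted p = 0.00104; chosen after its values were seen). For the difference of effects 7 were called, all with a larger value in eosinophils (median 2.40, against −0.06). Without naive eosinophil library 2 the 7 calls fell to 1, that of Cd163 (7.88, limma adjusted p = 4.48e-05). Cd163, the hemoglobin-haptoglobin scavenger receptor, fell in macrophages (−6.02 ± 0.45 on the log2 scale) from 268 ± 96.3 to 3.05 ± 0.924 normalised reads (limma adjusted p = 1.26e-08). In eosinophils Cd163 was 0 in both naive libraries and 2.97 ± 1.93 in tumor libraries (adjusted p = 0.0515). F13a1, a coagulation transglutaminase subunit, fell in macrophages (−3.13 ± 0.47) from 438 ± 52.5 to 58 ± 36.3 (limma adjusted p = 0.00013), and had 1.01 ± 0.63 in eosinophils (adjusted p = 0.325).

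**Figure D4:**
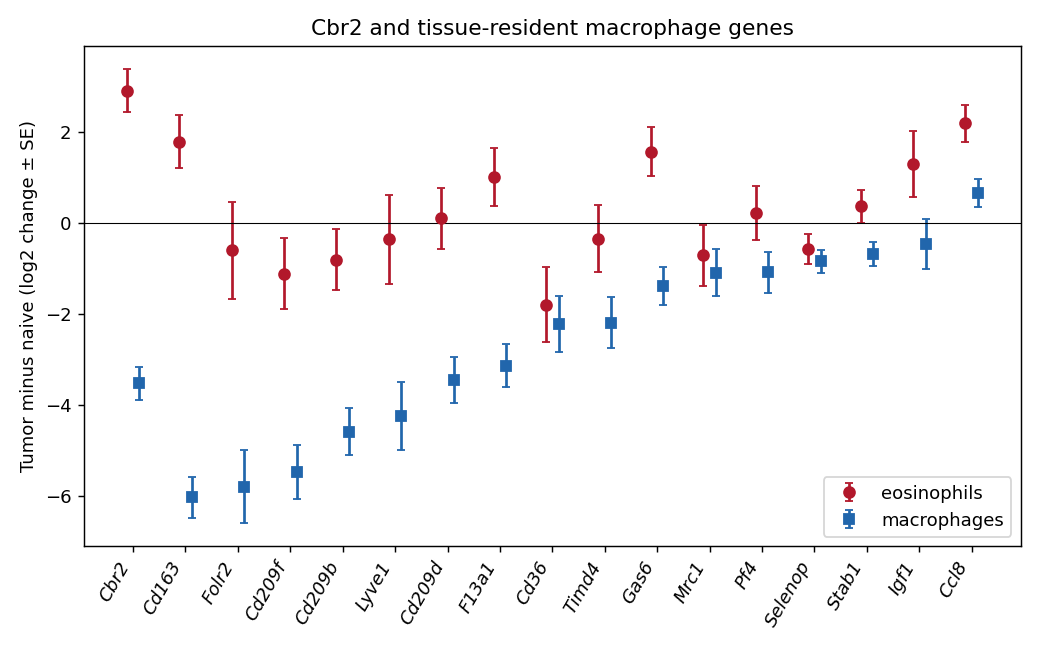
Change from naive to tumor (log2, bars are SE) in eosinophils (circles) and macrophages (squares) for Cbr2, at 2.91 and −3.52, and for 16 tissue-resident macrophage genes, ordered by their macrophage value. Cd163 at −6.02 is the lowest macrophage value shown.

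The enzymes nearest to Cbr2 in function did not share its pattern of calls. Of 13 carbonyl reductases and related dehydrogenases 2 rose in tumor eosinophils, 0 were called in tumor macrophages (1 at an unadjusted p under 0.05 besides Dhrs3) and 0 for the difference. Dcxr, which reduces sugars and dicarbonyls, rose in eosinophils by 1.74 ± 0.43 (limma adjusted p = 0.00958), from 80.9 ± 46.2 to 278 ± 132 normalised reads. Without naive eosinophil library 2, 0 of the 13 were called in eosinophils, Dcxr included (1.16, limma adjusted p = 0.295). Dhrs3, a retinal reductase, had −0.83 ± 0.26 in macrophages (adjusted p = 0.0643) and 0.51 ± 0.35 in eosinophils (adjusted p = 0.373).

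Of 14 adhesion genes related to Jaml, 3 fell and 0 rose in tumor eosinophils, 1 rose and 0 fell in tumor macrophages, and 3 had a lower effect in eosinophils (medians −0.15, 0.38 and −0.61). Itgb2, the β2 integrin subunit, fell in eosinophils (−1.27 ± 0.32, limma adjusted p = 0.0126), from 38700 ± 12200 to 16500 ± 5330 normalised reads, and Itgal, an α subunit that pairs with it, had −0.97 ± 0.30 (adjusted p = 0.0397). Neither was called without naive eosinophil library 2 (−0.91 and −0.50, limma adjusted p = 0.281 and 0.555). The call on Itgal in eosinophils also ended without tumor eosinophil library 1, 2 or 3. Of the 20 libraries left out in turn, 9 ended the call on its difference of effects: naive eosinophil library 2, tumor eosinophil library 3, naive macrophage libraries 1, 2, 3 and 5, and tumor macrophage libraries 3, 4 and 5. That of Itgb2 ended without naive eosinophil library 2 and without naive macrophage library 2. The gene that rose in macrophages was Cxadr, the epithelial ligand of Jaml (1.97 ± 0.56, limma adjusted p = 0.0342, chosen after its values were seen), from 18.2 ± 18.4 to 56.6 ± 23.2. Epithelial markers in macrophages summed to 16400 in naive library 1, 3040 to 8440 in the other naive libraries and 7040 to 12600 in tumor libraries. Of 14 epithelial markers 5 were called higher and 0 lower in tumor macrophages (median log2 change 1.11). Their part in the Cxadr values was not tested. The call on Cxadr ended with 8 of the 20 libraries left out in turn, naive macrophage libraries 2 to 5 and tumor macrophage libraries 3 to 6.

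Of 15 adaptors and partners of Scimp, 3 rose and 1 fell in tumor eosinophils, 0 were called in tumor macrophages, and 1 had a larger effect in eosinophils (medians −0.02, 0.16 and −0.17). That 1 was Blnk, the B cell linker that binds Scimp. It rose in eosinophils by 1.84 ± 0.28 (limma adjusted p = 0.000157), from 24 ± 4.65 to 91 ± 25.7 normalised reads, and was 247 ± 33.3 and 227 ± 39.2 in naive and tumor macrophages (difference of effects 1.97 ± 0.35, adjusted p = 0.00226). The adaptor Pag1 rose in eosinophils by 3.28 ± 0.71 (limma adjusted p = 0.00357), from 9.49 ± 11 to 93.7 ± 74.4, but lost its call when naive library 2 was left out (1.94, limma adjusted p = 0.252). Without that library 1 of the 15 rose in eosinophils and 0 fell. Lyn, the kinase Scimp recruits, was at 819 ± 193 and 822 ± 205 in naive and tumor eosinophils (−0.02 ± 0.25, adjusted p = 0.98; chosen after its values were seen).

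Of 17 genes related to Marcks, 1 rose and 3 fell in tumor eosinophils, 1 rose in tumor macrophages, and 1 had a larger and 2 a smaller effect in eosinophils (medians −0.81, 0.05 and −0.44). The gene that rose in eosinophils was Marcksl1, the closest relative of Marcks, from 2890 ± 1650 to 27000 ± 13100 normalised reads (3.20 ± 0.44, limma adjusted p = 5.9e-05). In macrophages Marcksl1 was 5710 ± 1680 and 7530 ± 2610 (0.38 ± 0.34, adjusted p = 0.613), and the difference of effects was 2.82 ± 0.56 (adjusted p = 0.00507), the same sign as for Marcks. Over all libraries Marcksl1 differed by 1.22 ± 0.25 (eosinophils minus macrophages, log2), given as a description with no test. Unlike for Marcks, the order of the cell types turned. Marcksl1 averaged 2890 in eosinophils and 5710 in macrophages in naive samples, and 27000 and 7530 in tumor samples. Basp1, a membrane protein of the same kind, rose in macrophages by 0.88 ± 0.20 (limma adjusted p = 0.00774), from 1120 ± 171 to 2080 ± 467, and had −0.47 ± 0.27 in eosinophils (adjusted p = 0.273). Without naive eosinophil library 2, 1 gene of the list rose and 1 fell in eosinophils. The difference of effects for Basp1 was −1.36 ± 0.34 (limma adjusted p = 0.0241), and −1.38 without naive eosinophil library 2 (adjusted p = 0.117).

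Of 12 genes related to Tacc2, 0 rose and 1 fell in tumor eosinophils, 0 rose and 1 fell in tumor macrophages, and 1 had a larger effect in eosinophils (medians −0.13, −0.02 and −0.38). The gene that fell in macrophages was Fgfr1, a growth factor receptor, with −3.14 ± 0.24 (limma adjusted p = 1.26e-08), from 141 ± 28.6 to 15.3 ± 4.87 normalised reads. In eosinophils Fgfr1 had −0.42 ± 0.31 (adjusted p = 0.424), and the difference of effects was 2.72 ± 0.39 (adjusted p = 0.000285). Mapre1, a microtubule end-binding protein, fell in eosinophils (−0.62 ± 0.20, limma adjusted p = 0.0431). Without naive eosinophil library 2 it was not called (−0.53, limma adjusted p = 0.291), nor without tumor eosinophil library 1 or 3. The family members Tacc1 and Tacc3, named as the relatives of Tacc2 on the list, had −0.82 ± 0.29 and 0.72 ± 0.53 in eosinophils and −0.39 ± 0.22 and 0.43 ± 0.40 in macrophages, none of them called.

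Of 16 acyltransferases and lipins related to Agpat3, 1 rose and 3 fell in tumor eosinophils, 0 were called in tumor macrophages, and 1 had a smaller effect in eosinophils (medians 0.11, 0.19 and −0.08). Lpcat2, which makes platelet-activating factor and phosphatidylcholine, fell in eosinophils (−1.16 ± 0.33, limma adjusted p = 0.0249), from 2340 ± 1310 to 1010 ± 326 normalised reads, and had 0.70 ± 0.25 in macrophages (adjusted p = 0.112; difference −1.85 ± 0.42, adjusted p = 0.0127). Lpcat3, which incorporates polyunsaturated fatty acids, fell in eosinophils (−0.97 ± 0.28, limma adjusted p = 0.0282), from 952 ± 425 to 478 ± 138. Without naive library 2 both calls on Lpcat2 ended (−0.53 in eosinophils, adjusted p = 0.553; difference −1.20, adjusted p = 0.283), and without naive library 1 that on Lpcat3 (−0.54, adjusted p = 0.312). Without naive library 2, 1 gene of the list rose and 1 fell in eosinophils. The other members of the Agpat family on the list, named for their kinship, Agpat1, Agpat2, Agpat4 and Agpat5, were measured and not called in either cell type (0.32, 0.98, 0.49 and −0.11 in eosinophils; 0.17, 0.16, 0.68 and 0.18 in macrophages).

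The genes whose profiles over the 20 libraries lay nearest to each of the 6 were found by the same measure. Nearest to Cbr2 were St3gal5, a ganglioside-synthesising sialyltransferase (1.06), and Mturn (1.12), both farther away than the nearest genes of the others. St3gal5 averaged 107 and 206 normalised reads in naive and tumor eosinophils, and 166 and 26.7 in naive and tumor macrophages. Nearest to Jaml were the C-type lectin receptor Clec4a3 (0.77) and Fam105a (0.78). Nlrp3, the inflammasome sensor, was nearest to Scimp (0.56), with means of 35, 782, 1420 and 1910 in the same order, followed by the transporter Slc26a11 (0.61). Slc26a11 was also the gene nearest to Marcks (0.42), followed by the interferon-induced GTPase Gbp3 (0.45), with means of 16.5, 174, 483 and 564. Stom, a membrane scaffold protein (0.52), and Ifit3b (0.61) were nearest to Tacc2, and the kinase Bmp2k (0.73) and Nxt2 (0.75) to Agpat3.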

How the data were processed

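For each cell type the authors deposited 1 table of normalised signal, that is, reads per gene divided by a factor per library, to 2 decimals. The submitters' processing notes list TopHat2 2.1.0 and Bowtie2 2.2.6 (aligners), HTSeq 0.6.1 (counting), DESeq2 1.14.1, and, for read quality, Trim Galore and FastQC 0.11.5; the build is GRCm38.p5. Their settings and annotation were not stated. All 374526 non-zero deposited signal values (100.0%) were whole multiples, within 0.1 read, of what 1 read was worth in that library, so reads were recovered. Of the gene names, 94.3% matched GENCODE M21; 27 names that are bare numbers took up to 0.1323% of reads in a library.

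Recovered reads of the 20 libraries were scaled together by TMM (edgeR 4.0.16) and transformed as log2(value + 1), which understates changes of low genes. Genes reaching 10 in at least 2 libraries were fitted in 1 limma model (3.58.1, R 4.3.3, trend, two-sided) with a mean per group, so the 2 cell types share 1 estimate of the spread, and adjusted over all 15620. EdgeR's quasi-likelihood test on recovered reads was an alternative; both tests were tested on simulated data. The fit of each cell type alone on deposited values was another. Same-numbered libraries were not treated as pairs: 3 of 22 correlations of their deviations passed 0.1 (−0.2 to 0.13). These were not compared with differently numbered libraries, so they do not show that pairing is absent. Genes named are the 6, the 2 per related list with the smallest p for the difference, and the 2 nearest profiles of each (predicted genes left out); others were added for kinship or after their values were seen. The 6 genes, the lists and the motifs were chosen with earlier results of these data known. One related gene enters the counts of its list and is not reported here.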

Additional observations from a re-analysis of the deposited data

Results flagged for a closer look

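One library stood apart from its group. Jaml in tumor eosinophil library 7 was 83.4 normalised reads (38 reads), and the gap to the next library took 0.627 of the group's range. Of 18 groups examined this was the 1 such case, and chance gives about 1 in 20 groups.

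Among the related genes, a difference of tumor effects between eosinophils and macrophages (eosinophil minus macrophage, log2) passed limma's test for the 15 genes given here. Of the tissue-resident macrophage genes these were Cd163 (7.81), Folr2 (5.19), Cd209f (4.35), F13a1 (4.14), Cd209b (3.77), Cd209d (3.57) and Gas6 (2.95). Marcksl1 (2.82), Fgfr1 (2.72) and Blnk (1.97) also had the larger effect in eosinophils. The smaller effect in eosinophils was that of Lpcat2 (−1.85), Itgb2 (−1.61), Itgal (−1.43), Basp1 (−1.36) and Pecam1 (−1.34). Without naive eosinophil library 2 none of these 5 passed (0 related genes had a smaller effect by limma). Of the 10 with the larger effect, Cd163, Blnk, Marcksl1 and Fgfr1 still passed. F13a1 (3.33, limma adjusted p = 0.0978), Folr2 (3.75, 0.356), Cd209f (3.01, 0.257), Cd209b (2.83, 0.221), Cd209d (3.60, 0.112) and Gas6 (1.67, 0.327) did not. Folr2 did not pass without naive macrophage library 3 either. The call on Pecam1 ended with 12 of the 20 libraries left out in turn.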

How the results depend on the processing

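A limit is that 2 libraries stand for naive eosinophils, and Jaml, Scimp and Agpat3 held 1 or 2 reads there, so their size depends on the pseudocount. The log2 change in eosinophils and the difference of effects were 5.34 and 6.81 (Jaml), 5.67 and 5.38 (Scimp) and 4.08 and 4.96 (Agpat3) with a pseudocount of 0.5, and 3.05 and 4.50, 3.33 and 3.06, and 1.98 and 2.80 with 5. By edgeR's quasi-likelihood test they were 6.29 and 6.07 (Scimp) and 4.74 and 5.69 (Agpat3). Leaving out each library in turn gave 4.01 to 5.49 and 5.50 to 6.98 (Jaml), 4.29 to 5.82 and 4.03 to 5.56 (Scimp), and 2.73 to 4.26 and 3.63 to 5.16 (Agpat3), the ends coming from the 2 naive eosinophil libraries. The signs of the 6 genes' tumor effects were the same in all of these.

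With tumor eosinophil libraries 4 to 7 only (chosen after seeing the data), the difference for Marcks was 3.46, the cell type difference was 0.52 for Cbr2 and −0.04 for Tacc2, 464 genes had a larger effect in eosinophils, and 5 related genes rose in macrophages. The cell type difference of Tacc2 ran from 0.21 to 0.66 with 1 library left out.

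Counts of calls depended on the naive eosinophil libraries. With 1 library left out, 294 to 1445 genes were higher and 188 to 1139 lower in tumor eosinophils (4 to 18 and 3 to 15 related genes), 390 to 656 were higher in tumor macrophages (1 to 2 related genes), and 110 to 938 had a larger and 54 to 830 a smaller effect in eosinophils (4 to 17 and 0 to 8 related genes). Each cell type fitted alone on deposited values gave 314 genes higher and 287 lower in eosinophils (2 and 1 related genes) and 979 and 993 in macrophages (8 and 19). Without the filter on low values 176 genes had a larger effect in eosinophils, 1 related gene a smaller one, and 1 related gene rose in macrophages, as by edgeR (1). Median-of-ratios scaling left 207 genes and 2 related genes with a smaller effect, and the fit with a replicate block 214 and 3. In that block the same-numbered libraries are known to share only a number. Dhrs3 in eosinophils was −0.36 without naive library 2 and 1.36 without naive library 1. Of the 12 choices of a nearest gene, 4 to 12 were made again with 1 library left out and 6 with a pseudocount of 5. The cause of these changes was not tested.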

Other observations

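Besides Cbr2, Jaml and Tacc2, 10 genes were called higher in tumor eosinophils and lower in tumor macrophages by limma; they are named here after their values were seen and were chosen by these same effects, so no test is given. Without naive eosinophil library 2, 7 genes met both calls, 6 of the 13 among them; without naive eosinophil library 1, 30 did, 10 of the 13 among them; and without naive macrophage library 4, 8 did, all among the 13. Ccl2 and Ccl7, chemokines that attract monocytes, averaged 155 and 24.7 normalised reads in naive eosinophils, 772 and 116 in tumor eosinophils, 5050 and 953 in naive macrophages and 1000 and 163 in tumor macrophages. The MHC class II genes H2-Eb1 and H2-DMa had log2 changes of 1.86 and 2.38 in eosinophils and −0.70 and −0.81 in macrophages. Maf, a transcription factor of macrophages, averaged 201 and 540 in naive and tumor eosinophils and 2780 and 1070 in naive and tumor macrophages. The others were Cd4, Ear2, Ifi27l2a, Itsn1 and Rab7b. Ear2 is an eosinophil-associated ribonuclease whose reads are uncertain because of near-identical relatives. Its means were 0.862 and 55 in naive and tumor eosinophils and 83.1 and 6.98 in naive and tumor macrophages. The log2 changes of Ear2 were 3.69 ± 1.16 (SE) in eosinophils and −3.34 ± 0.87 in macrophages. Cbr2, Tacc2 and Ear2 were the 3 of the 13 with a higher mean in tumor eosinophils than in tumor macrophages.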
